A study of Mus musculus with 14 samples.

Results

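The 8 genes described here, Neurog3, Fev, Sox4, Myc, Mycl, Mycn, Cd81 and Vim, are genes of the endocrine progenitor, of growth and of dedifferentiation in pancreatic islets. They were chosen by symbol, and all 8 were among the 52459 genes of the deposited count table. RNA sequencing had been done on cells of dispersed islets that were sorted by acidic beta-galactosidase activity, a lysosomal activity widely used to mark senescent cells. Cells with the activity (positive) gave 7 libraries and cells without it (negative) gave another 7, all from male C57BL/6J mice aged 7 months, a standard inbred strain, with no transgene or drug named for either group. The title of the study concerns the aging of beta cells in diabetes, and the comparison is between cells with and without this mark. The sort was made on islet cells as a whole, so both groups hold whatever cell types carried or lacked the activity.

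Endocrine cells of the embryonic pancreas arise from progenitors that briefly switch on the transcription factor NEUROG3, which starts the endocrine programme and is then shut down. FEV follows it in an intermediate progenitor and is otherwise known as the factor of serotonin neurons, and SOX4 acts both before and after NEUROG3. Dedifferentiation names the loss of mature features by beta cells under metabolic stress, with the return of progenitor or mesenchymal genes. MYC drives growth and proliferation and lowers beta cell maturity when forced on, CD81 has been described as a surface marker of immature and stressed beta cells, and vimentin is the intermediate filament of mesenchymal, endothelial and myeloid cells.

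The promoters of 3 members are shown because they carry the results below, Vim and Sox4 as the members with the clearest differences and Neurog3 as the gene that defines the progenitor. RefSeq entries of 300 bases (GRCm38.p6, 250 before to 50 after the gene start) were at hand for 7 of the 8 members. The RefSeq start of Vim lies inside the gene as GENCODE annotates it, downstream of the first start given there, so the Vim window describes the RefSeq start only. Capitals mark the CCAAT box (CCAAT on either strand) and, in Vim, the TATA box (TATAAA on either strand), both common elements of promoters. They are written in the direction of each gene.
Vim, chr2:13574061-13574360, plus strand: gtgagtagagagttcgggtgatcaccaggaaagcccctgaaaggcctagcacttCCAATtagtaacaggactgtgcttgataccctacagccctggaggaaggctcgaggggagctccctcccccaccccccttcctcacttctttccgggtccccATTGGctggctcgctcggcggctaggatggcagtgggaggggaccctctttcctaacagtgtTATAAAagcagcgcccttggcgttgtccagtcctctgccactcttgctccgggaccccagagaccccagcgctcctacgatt
Sox4, chr13:28953650-28953949, minus strand: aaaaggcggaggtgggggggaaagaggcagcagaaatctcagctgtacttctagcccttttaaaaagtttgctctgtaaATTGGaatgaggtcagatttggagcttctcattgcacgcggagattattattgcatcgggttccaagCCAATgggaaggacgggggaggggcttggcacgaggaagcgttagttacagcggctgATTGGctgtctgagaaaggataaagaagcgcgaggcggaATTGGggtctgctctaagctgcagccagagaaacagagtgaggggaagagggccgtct
Neurog3, chr10:62132840-62133139, plus strand: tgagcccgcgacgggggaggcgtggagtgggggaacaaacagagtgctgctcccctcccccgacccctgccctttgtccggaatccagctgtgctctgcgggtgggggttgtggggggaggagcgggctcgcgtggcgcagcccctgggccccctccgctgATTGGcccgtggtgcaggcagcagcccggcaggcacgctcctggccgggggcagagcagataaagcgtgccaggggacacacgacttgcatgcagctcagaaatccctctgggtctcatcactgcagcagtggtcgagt
The Sox4 window held 4 CCAAT boxes and that of Vim held 2, beginning at -196 and -94 from the gene start, whereas Neurog3 held 1 at -89. Of all 32851 promoter entries, 37.4% held at least 1 CCAAT box, 11.7% at least 2 and 1.06% at least 4. The TATA box of Vim began at -32, and 13.6% of all entries held one anywhere in the window. The AP-1 letters TGANTCA, searched on both strands, occurred in none of the 7 windows and in 7.81% of all entries. These matches describe the letters only.

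Total counts ranged from 15585779 to 24577025 in positive and from 11060144 to 23045934 in negative libraries. The p-values below measure the spread between these libraries, since the labels do not say that they came from separate animals. Where the replicate number enters as a block, the p-values measure the spread of the differences between pairs of equal number. Marker RNA of several cell types differed between the groups. The summed level of 20 endothelial markers was 447 to 1496 CPM (counts scaled to the size of each library) in positive and 9.17 to 85.3 CPM in negative libraries, and all 20 were called higher. The sum of 20 macrophage markers was 92.7 to 807 CPM in positive and 18.3 to 26.8 CPM in negative libraries, with 17 of the 17 tested called higher. In negative libraries most of the macrophage sum came from C1qa and Cd68, with means of 10.7 and 4.35 CPM. No marker of either list was at 0 over the negative libraries, but some macrophage markers had few counts there, such as 7 of Adgre1 and 19 of C1qb. Positive libraries 6 and 7 held the most macrophage and endothelial marker RNA, and negative 3 held 1969 CPM of 20 stellate cell, pericyte and fibroblast markers, against 232 to 482 CPM in the positive and 132 to 212 CPM in the other negative libraries. Among other islet and exocrine cells, the delta cell gene Sst rose to a mean of 1088 CPM in positive cells, against 181 CPM in negative cells (n = 7 each; log2 fold change 2.58 ± 0.51, SE, edgeR adjusted p = 0.00562), and Hhex of the same cells rose by 2.50. Of 7 delta and pancreatic polypeptide (PP) cell genes tested, these 2 rose, 0 fell and 5 were not called (median 0.33). Of 14 acinar genes 5 fell, Pnlip (-3.56) among them. The mature beta cell gene Ins2 had 70641 ± 7962 CPM in positive and 82075 ± 10689 CPM in negative libraries (SD, n = 7 each), so insulin RNA was abundant in both groups of these islet cells.

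Of the 5 members with enough counts to be tested, Vim and Sox4 had the largest differences, both toward higher levels in positive cells, while Myc, Fev and Cd81 differed by less than the spread between libraries. None of the 5 was called by edgeR's quasi-likelihood test with the group as the only term (Benjamini-Hochberg adjusted p below 0.05 over all 16350 genes tested), against 8.03% of all genes tested (6.4% higher and 1.63% lower), and 2 had an unadjusted p below 0.05. With the replicate number as a block, Vim and Sox4 rose, where 19.6% of all genes were called, 11.8% as higher and 7.77% as lower, and no member fell. DESeq2 called 1 member, Sox4, as higher, where it called 9.2% of all genes and 7.09% as higher. The other 3 members, Neurog3, Mycl and Mycn, stayed below the filter on low counts, and an exact permutation test called none of them (smallest p = 0.168). An exact sign-flip test on the pairs of equal number called none either (smallest p = 0.109, for Neurog3). No member had groups that were fully apart, as 3.5% of the genes tested had with all positive libraries above all negative ones, and 0.355% with all below. None was higher in all 7 pairs of equal number or lower in all 7, as 11.1% and 6.93% of the genes tested were.

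**Figure D1:**
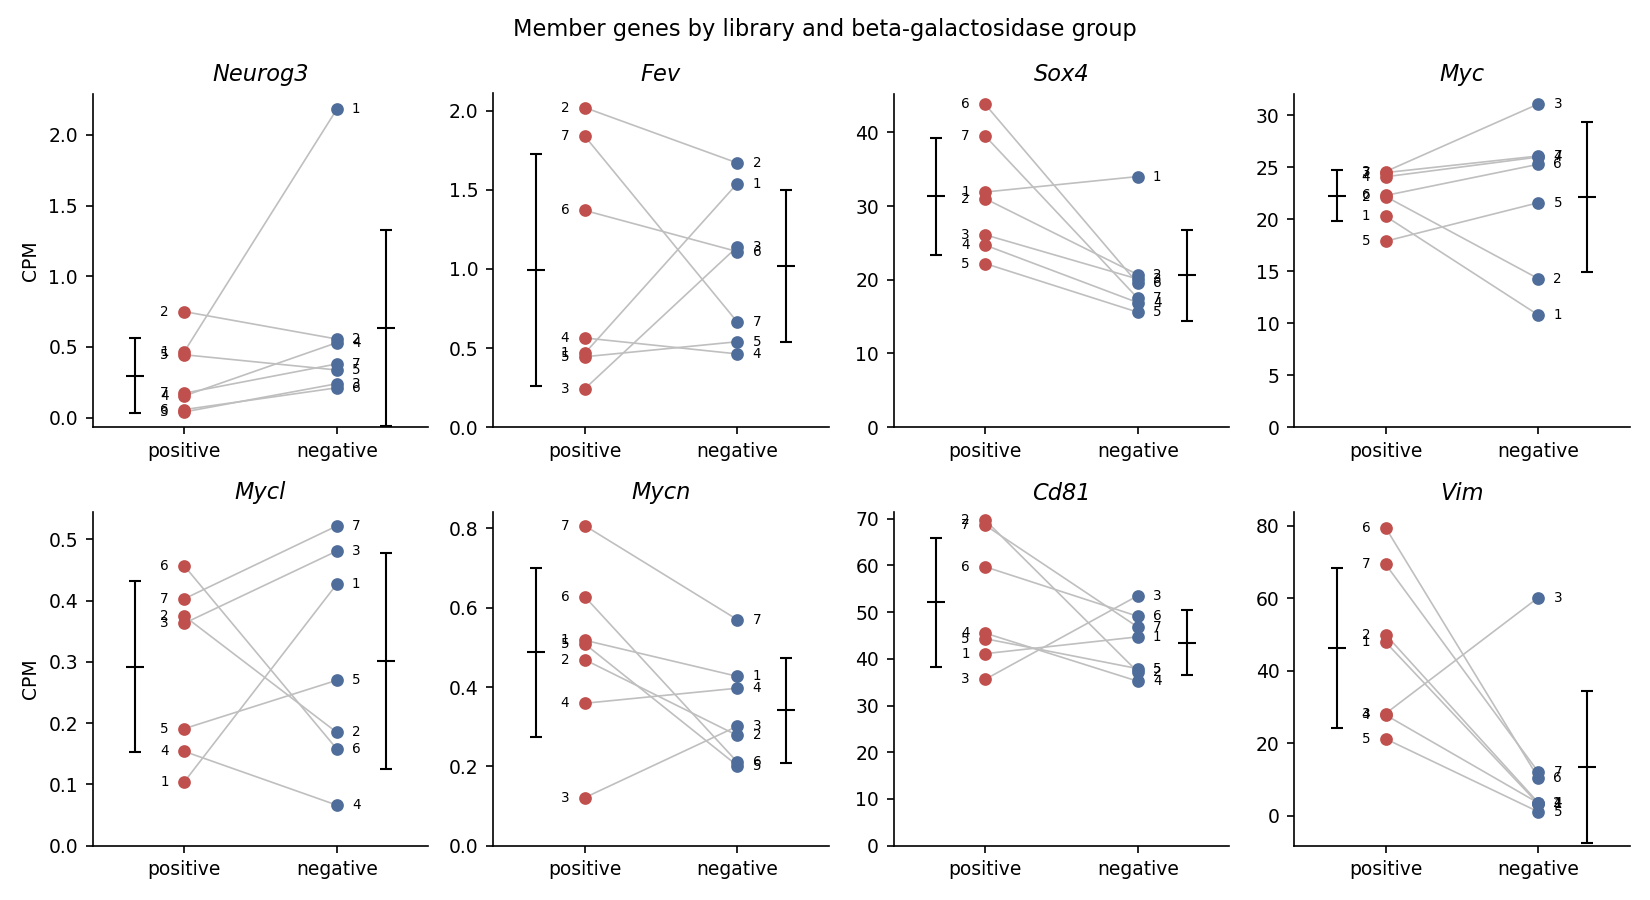
Level of each member in CPM (vertical axis) in the 7 positive libraries (red, left) and the 7 negative libraries (blue, right). Grey lines join libraries of equal number, and black bars give the mean and SD of each group. Vim lay between 21.2 and 79.5 CPM in positive libraries and at or below 12.1 CPM in all negative libraries but number 3, at 60.2 CPM, and Sox4 lay above 6 of the 7 negative libraries in every positive one.

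Levels can be set beside each other only per length of the transcript, here as CPM per kilobase of merged exons in the GENCODE M21 annotation. In positive cells Cd81 came first, at 18.1 ± 4.78, followed by Vim at 9.75 ± 4.68, Myc at 8.20 ± 0.915 and Sox4 at 6.53 ± 1.65 CPM per kilobase (SD, n = 7). In negative cells the order was Cd81 at 15.1 ± 2.38, Myc at 8.16 ± 2.65, Sox4 at 4.30 ± 1.29 and Vim at 2.84 ± 4.43 CPM per kilobase. Neighbours in these orders overlapped by their mean ± SD, apart from Cd81 and Myc in negative cells. The remaining members had lower means, with Fev at 0.614 ± 0.454 in positive and 0.629 ± 0.296 CPM per kilobase in negative cells. Neurog3 was at 0.178 ± 0.157 in positive and 0.378 ± 0.414 CPM per kilobase in negative cells. Mycn had 0.148 ± 0.0649 in positive and 0.103 ± 0.0401, and Mycl 0.0724 ± 0.0345 in positive and 0.0746 ± 0.0437 CPM per kilobase in negative cells. Each of these low members overlapped with its neighbour in both groups, whereas Sox4 and Fev were apart in positive cells. The Vim mean in negative cells rests on negative 3, at 12.7 CPM per kilobase, while the other 6 lay between 0.228 and 2.55, and Fev lay above Vim in negative 1, 2 and 5.

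Neurog3 (chr10:62133090-62134763, GRCm38, plus strand), the factor that commits cells to the endocrine fate, was close to the detection limit in both groups. Its counts over the 7 libraries were 40 in positive and 86 in negative cells, and 51 of the counts in negative cells came from negative 1 alone. It had 0.466, 0.75, 0.0404, 0.154, 0.445, 0.0571 and 0.173 CPM in positive libraries 1 to 7, against 2.18, 0.556, 0.240, 0.530, 0.337, 0.211 and 0.380 CPM in negative 1 to 7. The groups overlapped, with negative 1 above all other libraries and the lowest values in positive 3 and 6. The mean of log2(CPM + 1) was lower by 0.27 in positive cells (difference -0.27, exact two-sided permutation test, p = 0.224, adjusted over the 3 low members p = 0.337), and lower in 5 of 7 pairs of equal number. An exact sign-flip test over the 7 pairs gave p = 0.109 (adjusted over the 3 low members p = 0.234). Without negative 1 the difference was -0.10. The gene shares 16.3% of its exon bases with Fam241b on the other strand, and because the strand setting of the counting is not given, reads of these bases cannot be assigned to one of them.

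Fev (chr1:74881509-74885419, minus strand), which marks the endocrine progenitor after NEUROG3 and opens the serotonin programme, was low and varied between libraries rather than between groups. It had 0.466, 2.02, 0.242, 0.564, 0.445, 1.37 and 1.84 CPM in positive libraries 1 to 7, against 1.54, 1.67, 1.14, 0.463, 0.540, 1.11 and 0.665 CPM in negative 1 to 7. In both groups a few libraries stood well above the rest, numbers 2, 7 and 6 in positive and 2, 1, 3 and 6 in negative cells. The log2 fold change was -0.04 ± 0.45 (SE, 95% interval -0.99 to 0.92, edgeR adjusted p = 0.977), and the gene was higher in 4 of 7 pairs. The sum of 10 alpha cell markers was high in most of these libraries, though not in negative 6. It was 27655, 19530 and 15051 CPM in positive 7, 2 and 6 and 3627 to 11918 CPM in the other positive libraries, and it was 28434, 26572 and 25793 CPM in negative 1, 3 and 2 and 10683 to 14204 CPM in the other negative ones, with 14204 CPM in negative 6. Positive 2, 6 and 7 also had the highest endothelial, macrophage, delta and PP cell, and ductal marker sums of the positive libraries. The macrophage sum of positive 2 was close to that of positive 4, at 131 and 129 CPM. Most of the ductal sum came from Cldn4, Spp1, Krt7 and Epcam. These had means of 897, 282, 543 and 275 CPM in negative cells as well. The duct gene Krt19 had only 3.14 CPM in positive and 1.90 CPM in negative cells, so the ductal sum is a weak measure of duct cells. Whether any of these sums bears on Fev was not tested.

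Sox4 (chr13:28948919-28953713, minus strand), an HMG-box factor of progenitors that many other cell types also express, had the higher mean in positive cells. It had 31.9, 31.0, 26.1, 24.7, 22.2, 43.8 and 39.5 CPM in positive libraries 1 to 7, against 34, 20.7, 20.1, 16.9, 15.6, 19.5 and 17.5 CPM in negative 1 to 7. Every positive library lay above 6 of the 7 negative libraries, and negative 1 lay within the positive range. The means were 31.3 ± 7.93 CPM in positive and 20.6 ± 6.18 CPM in negative cells (SD, n = 7 each), with the positive library higher in 6 of 7 pairs. The log2 fold change was 0.60 ± 0.18 (SE), which missed the threshold over all genes (edgeR adjusted p = 0.059) without the block, and Sox4 rose with the block (0.61 ± 0.15, adjusted p = 0.0251) and in DESeq2 (adjusted p = 0.0168). Without negative 1 it was called without the block as well (0.76, edgeR adjusted p = 0.00381, where 5.97% of all genes were called higher), likewise without positive 5 (adjusted p = 0.0407, with 6.32% of all genes). The call with the block was lost without pair 2, 4, 5, 6 or 7 (adjusted p 0.0522 to 0.0631) and without all 4 libraries numbered 6 and 7 (log2 fold change 0.37, adjusted p = 0.053), where the value without the block was 0.34 (adjusted p = 0.536).

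The highest Sox4 levels among positive cells were in libraries 6 and 7, where endothelial markers summed to 1496 and 1431 CPM and macrophage markers to 807 and 561 CPM. In positive 1 to 5 the endothelial sum was 447 to 1134 and the macrophage sum 92.7 to 131 CPM. Negative 1, the negative library with the most Sox4, had an endothelial sum of 18.5 and a macrophage sum of 20.5 CPM. In these bulk libraries a different share of cells and a different level per cell cannot be told apart, and the part of such cells in the Sox4 result was not tested. A noncoding gene on the opposite strand, Gm26735, overlaps 54.6% of the exon bases of Sox4. It had 419 counts over all 14 libraries, against 4207 counts of Sox4 in positive and 2577 in negative libraries, and how overlapping reads were assigned is not given.

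**Figure D2:**
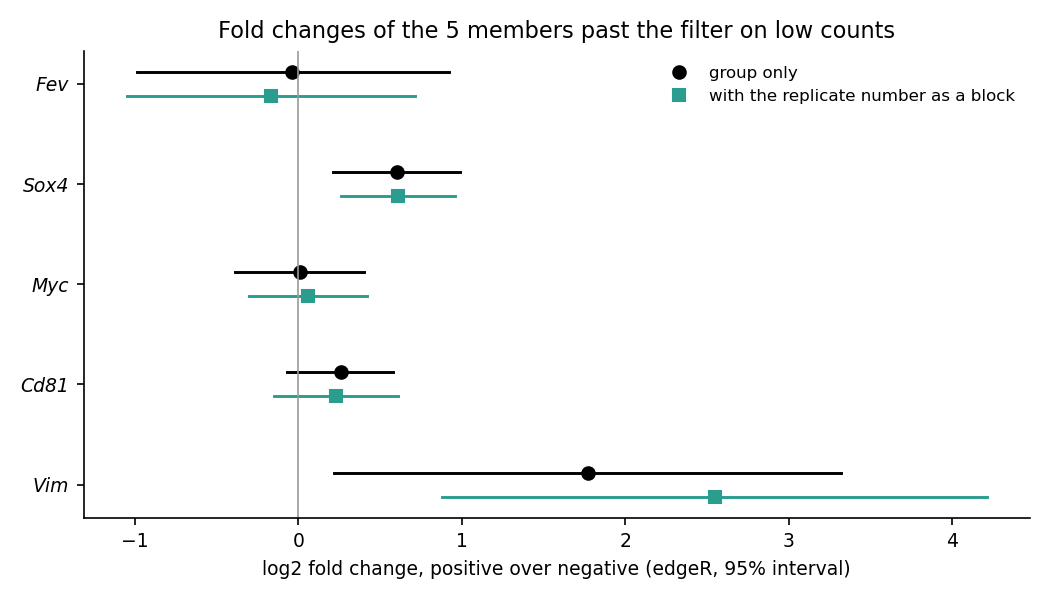
Log2 fold change of the 5 members past the filter on low counts, positive over negative (horizontal axis), with the 95% interval as a line. Black circles are the edgeR fit with the group only, and green squares the fit that also had a block for the number of the library. The intervals of Vim and Sox4 lay above 0 in both fits and those of Fev, Myc and Cd81 included 0, although of these fits only the one with the block brought Vim and Sox4 past the threshold adjusted over all genes.

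Of the MYC family, which share a basic helix-loop-helix leucine zipper that pairs with MAX, Myc was by far the most abundant and differed between the groups by less than the spread between libraries. Myc (chr15:61985391-61990374, plus strand) had 20.3, 22.2, 24.6, 24.1, 17.9, 22.3 and 24.5 CPM in positive libraries 1 to 7, against 10.8, 14.3, 31.1, 26, 21.6, 25.3 and 26.1 CPM in negative 1 to 7. The positive libraries were close together, whereas negative 1 and 2 lay below all positive libraries and negative 3, 4, 6 and 7 above all of them. The means were 22.3 ± 2.49 CPM in positive and 22.2 ± 7.19 CPM in negative cells (SD, n = 7 each). The log2 fold change was 0.01 ± 0.19 (SE, 95% interval -0.39 to 0.40, edgeR adjusted p = 0.989), and the gene was higher in only 2 of 7 pairs, those numbered 1 and 2.

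Mycl (chr4:122995652-123002485, plus strand) and Mycn (chr12:12936093-12941914, minus strand), the family members best known from lung and neural tissue, were both scarce. Mycl had 40 counts over the positive and 39 over the negative libraries, and it ranged from 0.104 to 0.457 CPM with a median of 0.363 in positive and from 0.0662 to 0.522 CPM with a median of 0.270 in negative cells. Its difference in mean log2(CPM + 1) was -0.01 (exact two-sided permutation test, p = 0.95). Mycn had 63 counts in positive and 43 in negative libraries, ranging from 0.121 to 0.807 CPM (median 0.509) in positive and from 0.202 to 0.570 CPM (median 0.301) in negative cells. It was higher in 5 of 7 pairs, with a difference of 0.14 in mean log2(CPM + 1) (exact permutation test, p = 0.168, adjusted p = 0.337).

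Cd81 (chr7:143052739-143067934, plus strand), a tetraspanin that organises receptors at the cell surface, was the most abundant member per length. It had 41.1, 69.7, 35.6, 45.5, 44.3, 59.7 and 68.6 CPM in positive libraries 1 to 7, against 44.7, 37.2, 53.5, 35.2, 37.9, 49.1 and 46.8 CPM in negative 1 to 7. Positive 2, 6 and 7 lay above all negative libraries, and the other positive libraries lay within the negative range. The means were 52.1 ± 13.8 CPM in positive and 43.5 ± 6.86 CPM in negative cells (SD, n = 7 each), with 5 of 7 pairs higher. The log2 fold change of 0.26 ± 0.15 (SE, 95% interval -0.07 to 0.58) was not called (edgeR adjusted p = 0.358; 0.371 as adjusted p with the block). Positive 2, 6 and 7 were also the 3 positive libraries with the highest endothelial, macrophage, alpha cell, delta and PP cell, and ductal marker sums. The limits of the macrophage and ductal sums given for Fev hold here too, and the part of such cells was not tested. The antisense gene R74862 overlaps 3.6% of the exon bases of Cd81.

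Vim (chr2:13573927-13582826, plus strand), which encodes vimentin, had the largest difference of the 5 members tested. It had 47.9, 50, 28.2, 27.8, 21.2, 79.5 and 69.4 CPM in positive libraries 1 to 7, against 3.29, 3.61, 60.2, 3.51, 1.08, 10.5 and 12.1 CPM in negative 1 to 7. All positive libraries lay above all negative libraries but negative 3, which lay above 5 of the 7 positive ones. The means were 46.3 ± 22.2 CPM in positive and 13.5 ± 21 CPM in negative cells (SD, n = 7 each), while the medians were 47.9 CPM in positive and 3.61 CPM in negative cells. The log2 fold change was 1.77 ± 0.72 (SE, edgeR adjusted p = 0.172), and Vim rose with the block, by 2.55 ± 0.70 (adjusted p = 0.0468). The positive library was higher in 6 of 7 pairs, by 2.51 to 4.16 on the log2 scale, and lower in pair 3, by a difference of -1.09.

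The result for Vim turned on negative 3. Without that library Vim was called without the block, with a log2 fold change of 2.96 (edgeR adjusted p = 0.00185, where 7.63% of all genes were called higher), and without pair 3 the blocked value was 3.19 (adjusted p = 8.41e-05). The call with the block was lost without any other pair (adjusted p 0.095 to 0.117), and without all 4 libraries numbered 6 and 7 (2.45, adjusted p = 0.245). In negative 3 the stellate cell, pericyte and fibroblast markers summed to 1969 CPM, while the endothelial sum was 17.1 CPM. Among the positive libraries Vim stood in nearly the same order as the endothelial sum, which was 1496 CPM in number 6, 1431 in number 7, 1134 in number 2 and 684 in number 1, and 447 to 576 CPM in numbers 3 to 5. Negative 6 and 7, with the highest Vim of the other negative libraries, had endothelial sums of 85.3 and 77.1 CPM, against 9.17 to 18.5 CPM in negative 1 to 5. The part of these cell types in the Vim difference was not tested.

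**Figure D3:**
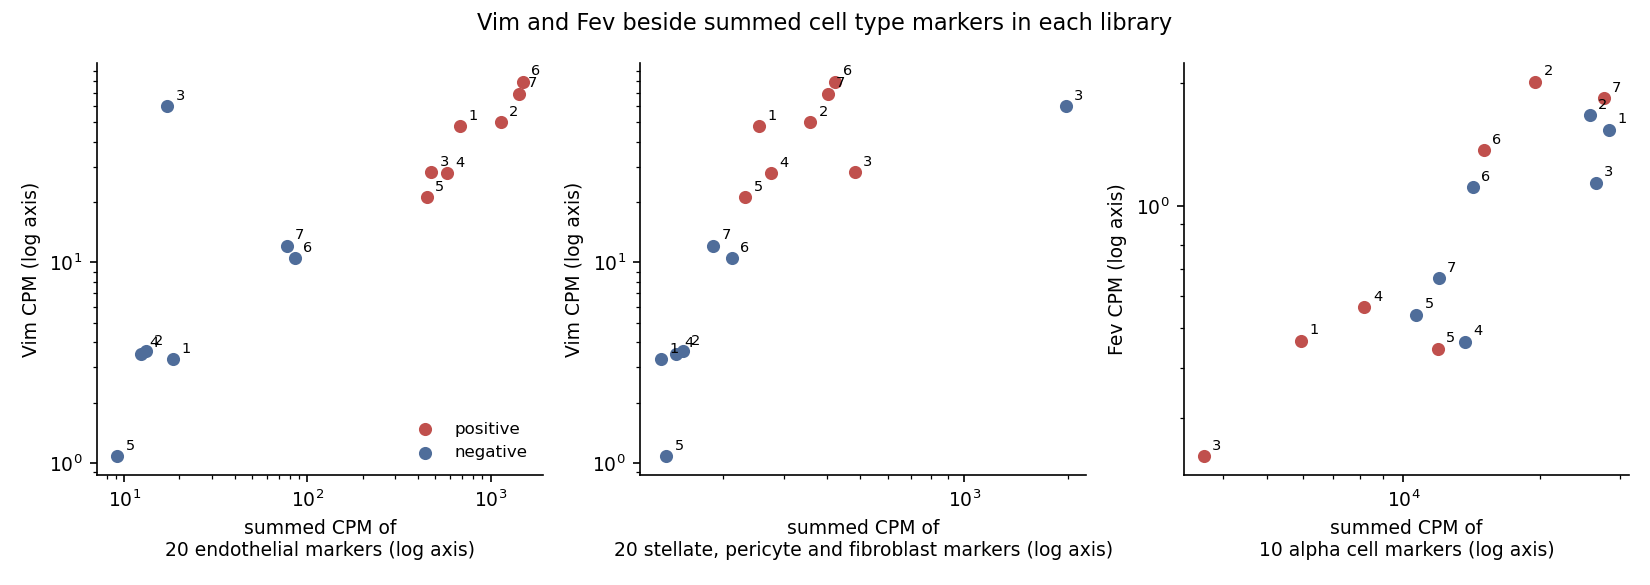
Vim against the summed CPM of 20 endothelial markers (left) and of 20 stellate cell, pericyte and fibroblast markers (middle), and Fev against that of 10 alpha cell markers (right), all on log axes, with 1 point for each positive (red) or negative (blue) library and its number. Negative 3 stood apart at 60.2 CPM of Vim and 1969 CPM of stellate and pericyte markers, and the libraries with 15051 CPM or more of alpha cell markers had at least 1.14 CPM of Fev.

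**Figure D4:**
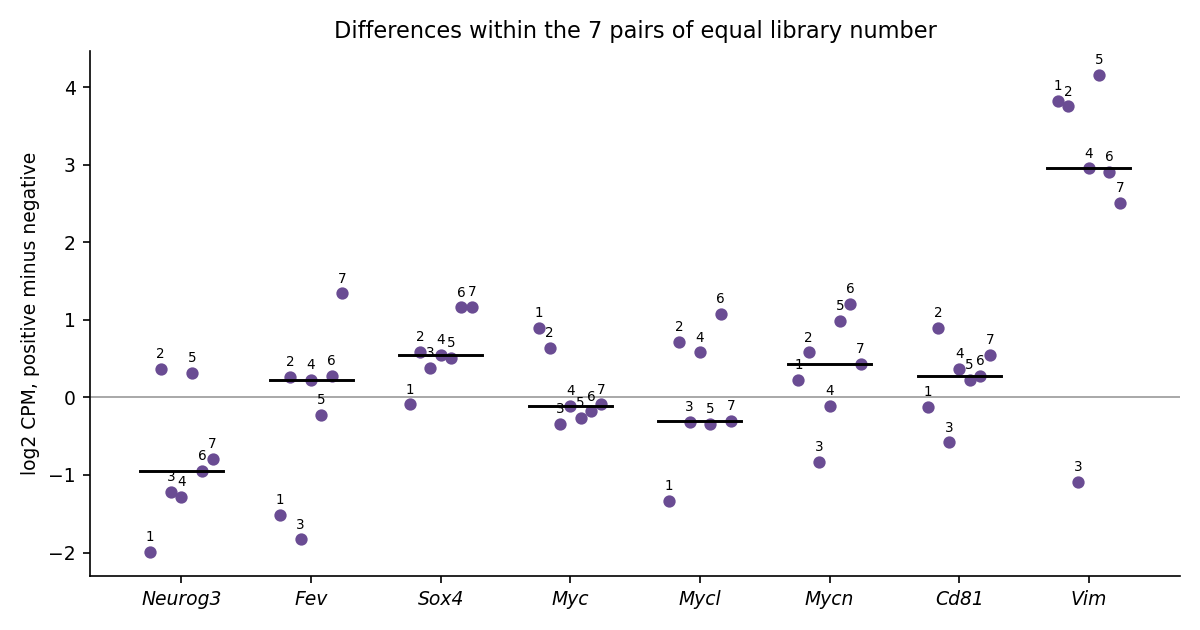
Difference in log2 CPM, positive minus negative, within each of the 7 pairs of equal library number (points, with the number) for each member, with the median as a bar. The median was 2.95 for Vim, whereas the medians of the other members lay between -0.95 for Neurog3 and 0.55 for Sox4.

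The libraries in which a member was high or low were compared with those of other genes through deviations from the group means of log2 CPM over the 14 libraries, over those genes whose average log2 CPM reached 3. This gives a description only, and the points share libraries, depth and cell content. Vim was most like Itga5 (Pearson r = 0.974), which encodes the fibronectin receptor subunit, Timp3 (0.972), an inhibitor of matrix proteases, and Sema7a (0.970), a semaphorin. Myc was most like Met (0.971), the receptor of hepatocyte growth factor, the zinc exporter gene Slc30a1 (0.960) and Mmd (0.946). Fev was most like Tsc22d4 (0.958), Basp1 (0.957) and Mapk4 (0.938), and Sox4 was most like Ugp2 (0.922), Thyn1 (0.920) and the integrin gene Itgb5 (0.911). Cd81 was most like Efna1 (0.940), which encodes an ephrin, Plin3 (0.904) and Rhoc (0.895). Of these 15 genes Timp3, Sema7a, Efna1 and Rhoc rose between the groups (log2 fold changes 3.08, 3.82, 1.34 and 1.54), and the others were not called. Between members the closest pair by this measure was Fev and Cd81, at r = 0.82, followed by Fev and Sox4 at 0.70, and the lowest was Sox4 and Myc at -0.44.

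Genes that stand before NEUROG3 in the pancreas, the transcription and Notch genes of the multipotent progenitor, were partly higher in positive cells. Of 20 listed genes 15 were tested, 6 rose, 0 fell and 9 were not called, with a median log2 fold change of 0.00 against 0.00 over all genes tested and 6.4% of all genes called higher. Hes1, the Notch effector that represses Neurog3, rose to 14.7 ± 3.19 CPM in positive cells, against 6.40 ± 1.37 CPM in negative cells (SD, n = 7 each; log2 fold change 1.20 ± 0.15, edgeR adjusted p = 0.000132). Yap1, a coactivator of the Hippo pathway, rose by a log2 fold change of 1.83 ± 0.30 and Nr5a2, a nuclear receptor of acinar cells, by 2.33 ± 0.41. The others that rose were Notch1, Notch2 and Jag1, all of which endothelial cells express as well. Endothelial markers in the same libraries summed to medians of 684 CPM in positive and 17.1 CPM in negative cells. The part of such cells in the rise of any of these 6 genes was not tested. With the block Notch2 was not called (edgeR adjusted p = 0.0605), the other 5 rose, and Gata6, Foxa2 and the acinar gene Cpa1 were among those that fell. Sox9, the defining factor of the progenitor and the duct, stayed below the filter at 0.710 ± 0.445 CPM in positive and 0.359 ± 0.297 CPM in negative cells.

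Genes at or below NEUROG3, many of which stay on in mature endocrine cells, had a median below 0. Of 24 listed 22 were tested, of which 2 rose, 1 fell and 19 were not called without the block (median -0.19), against 6.4% of all genes higher and 1.63% lower. With the block 4 rose and 9 fell, against 11.8% of all genes higher and 7.77% lower. Neurod1, a direct target of NEUROG3, fell to 164 ± 21.3 CPM in positive cells, against 217 ± 36.6 CPM in negative cells (SD, n = 7 each; log2 fold change -0.40 ± 0.11, edgeR adjusted p = 0.0303). Leaving out any of negative 2, 4 and 5 or positive 2, 6 and 7 ended that call (edgeR adjusted p 0.0517 to 0.0624), as did leaving out all 4 libraries numbered 6 and 7 (0.139). Mfng, a glycosyltransferase that modifies Notch, rose by 3.66 ± 0.30 and Amotl2, which endothelial cells use at their junctions, by 0.48 ± 0.09. Those that fell with the block and, over all libraries, not without it were Nkx2-2, Nkx6-1, Rfx6, Isl1, Pax6, Myt1, Cbfa2t3 and Runx1t1, most of them transcription factors of mature islet cells, and Gadd45a and the Notch ligand gene Dll1 rose in the same way. The changes in Sst and Hhex and in acinar, endothelial and macrophage markers given above stand beside these islet genes, and their part was not tested. Pax4, the beta lineage factor after NEUROG3, had 2 counts over the positive and 1 over the negative libraries.

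Serotonin genes, named for the programme that FEV controls, held no common direction. Of 17 listed 9 were tested, and 2 rose, 1 fell and 6 were not called (median -0.12), against 6.4% of all genes higher and 1.63% lower. Ddc, the decarboxylase that makes serotonin and dopamine, fell to 262 ± 43.8 CPM in positive cells, against 356 ± 40.2 CPM in negative cells (SD, n = 7 each; log2 fold change -0.44 ± 0.11, edgeR adjusted p = 0.0144), lower in all 7 pairs, and was not called without the 4 libraries numbered 6 and 7 (0.112). Htr1b, a serotonin receptor gene, and Gata2, a factor of endothelial and blood cells, rose by log2 fold changes of 3.95 ± 0.40 and 5.02 ± 0.56, with only 9 counts of Htr1b and 26 of Gata2 over the negative libraries. Tph1, the enzyme that begins serotonin synthesis, had 32 counts in positive and 19 in negative libraries and was not tested.

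Without the block, 1 gene of the MYC network and 0 targets of MYC were called, where 8.03% of all genes tested were called. Of 11 listed network genes, MAX and partner genes of the network, 10 were tested, with 0 higher, 1 lower and 9 not called (median -0.01). Over all genes tested 6.4% were called higher and 1.63% lower. The gene that fell was Mlxipl, the glucose sensor ChREBP, at 260 ± 75.0 CPM in positive and 418 ± 78.5 CPM in negative cells (log2 fold change -0.68 ± 0.19, edgeR adjusted p = 0.0345, lower in all 7 pairs). Leaving out any of negative 1, 2, 4 and 5 or positive 3 and 6 ended its call (edgeR adjusted p 0.0581 to 0.0688), and with the block Mxi1, a repressor that competes for MAX, fell as well. Mxd4, a repressor of the same kind, had 167 ± 9.45 CPM in positive and 168 ± 14.1 CPM in negative cells, with a log2 fold change of 0.00 ± 0.06. Of 26 nucleolar, translation and metabolic targets edgeR called 0 (median 0.05), with 1 at an unadjusted p below 0.05 and 0 in DESeq2. The most abundant were Ncl, the nucleolar protein nucleolin, at 601 ± 52.6 CPM in positive and 536 ± 40.4 CPM in negative cells (0.17 ± 0.07, edgeR adjusted p = 0.177), and the cyclin gene Ccnd2, at 574 ± 46.0 CPM in positive and 575 ± 45.8 CPM in negative cells. With the block 3 of the 26 targets rose, Ncl (adjusted p = 0.0359), Nop56 and the transferrin receptor gene Tfrc, and 0 fell. Over all genes tested 11.8% were called higher with the block.

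Several relatives and partners of CD81 were higher in positive cells. Of 24 listed 20 were tested, of which 7 rose, 0 fell and 13 were not called (median 0.25), against 6.4% of all genes called higher. Cd9, the close relative of Cd81, rose to 9.25 ± 3.34 CPM in positive cells, against 3.47 ± 0.873 CPM in negative cells (SD, n = 7 each; log2 fold change 1.41 ± 0.22, edgeR adjusted p = 0.000587), with every positive library above every negative one. Ifitm3, an interferon-induced membrane protein, rose by 3.05 ± 0.47, and Cd53, a tetraspanin of white blood cells, by 5.52 ± 0.96, with only 10 counts over the negative libraries. The others that rose were Cd151, Tspan4, Tspan12 and Tspan14. With the block 10 rose, Cd82, Tspan9 and Igsf8 among them, and Tspan3 fell, against 11.8% of all genes higher and 7.77% lower. Without the 4 libraries numbered 6 and 7, only 3 genes of the list were called. Macrophage markers in the same libraries summed to medians of 129 CPM in positive and 20.5 CPM in negative cells. Endothelial markers summed to medians of 684 CPM in positive and 17.1 CPM in negative cells. The part of either cell type was not tested.

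Of 22 other intermediate filament and mesenchymal genes 19 were tested, of which 5 rose, 0 fell and 14 were not called (median 0.13), against 6.4% of all genes called higher. Nes, which encodes nestin, rose to 33.1 ± 15.3 CPM in positive cells, against 2.19 ± 1.78 CPM in negative cells (SD, n = 7 each; log2 fold change 3.87 ± 0.48, edgeR adjusted p = 0.000188). Des, the filament gene of pericytes and muscle, rose by 2.56 ± 0.47 and the repressor gene Zeb2 by 3.32 ± 0.73, and Synm and Prph rose as well. The epithelial keratin genes Krt8 and Krt18, named after their values were seen, were not called, with a log2 fold change of 0.13 each. Without the 4 libraries numbered 6 and 7, Des (2.30, edgeR adjusted p = 0.0592) and Zeb2 (2.64, 0.172) were not called. Fn1, the fibronectin gene, named after its values were seen, had 6.42 ± 6.02 CPM in positive and 14.1 ± 32.7 CPM in negative cells, with a log2 fold change of -1.12 without the block and 0.56 with it, neither of them called. Endothelial marker sums in the same libraries were 447 to 1496 CPM in positive and 9.17 to 85.3 CPM in negative cells. Of the stellate cell, pericyte and fibroblast markers 18 were tested, of which 6 rose, 0 fell and 12 were not called (median 0.39). Those that rose included Des itself and the pericyte genes Rgs5 (4.02), Abcc9 (3.76) and Notch3 (2.87). The collagen genes Col1a1 (-2.13), Col1a2 (-1.80) and Col3a1 (-2.27) went the other way and were not called. For Col1a1 the medians were close, at 8.93 CPM in positive and 9.22 CPM in negative libraries. The sum of the markers had a median of 358 CPM in positive and 153 CPM in negative libraries, with 1969 CPM in negative 3. Gsn alone had means of 113 CPM in positive and 111 CPM in negative cells, much of that sum in most libraries. The part of these cells was not tested.

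Of 15 other genes reported from dedifferentiated beta cells 10 were tested, of which 4 rose, 0 fell and 6 were not called (median 1.34), against 6.4% of all genes called higher. Those that rose were Hes1, Rest, the repressor of neuronal genes, at 7.22 ± 2.58 CPM in positive and 1.47 ± 0.823 CPM in negative cells (log2 fold change 2.27 ± 0.32, edgeR adjusted p = 0.000272), Slc16a1, the monocarboxylate transporter gene that beta cells keep low (1.47 ± 0.26), and Hk1, a hexokinase with high affinity for glucose. These 4 are known from many other cell types, and in the same libraries the median endothelial sum was 684 CPM in positive and 17.1 CPM in negative cells and the median macrophage sum 129 CPM in positive and 20.5 CPM in negative cells, whose part was not tested. Without the 4 libraries numbered 6 and 7, Slc16a1 (1.17, edgeR adjusted p = 0.0592) and Hk1 (1.54 ± 0.35 in all libraries) were not called. With the block 5 rose, Ldha (edgeR adjusted p = 0.0185) among them, and 0 fell, against 11.8% of all genes called higher. Aldh1a3, the enzyme best known from failing beta cells, was at 2.14 ± 1.01 CPM in positive and 2.09 ± 0.950 CPM in negative cells (0.03 ± 0.32, edgeR adjusted p = 0.977). Pou5f1, a pluripotency gene, had 0 counts in all 14 libraries, and Nanog had 0 in positive and 2 in negative libraries.

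Genes of the mature beta cell had a median below 0 but were seldom called. Of 17 tested of 18 listed, 0 rose, 1 fell and 16 were not called (median -0.25), against 1.63% of all genes called lower. With the block 0 rose and 9 fell, against 7.77% of all genes called lower. Trpm5, a cation channel of insulin secretion, fell to 47.7 ± 6.69 CPM in positive cells, against 66.6 ± 9.43 CPM in negative cells (SD, n = 7 each; log2 fold change -0.48 ± 0.10, edgeR adjusted p = 0.00614), with every positive library below every negative one. Ins1 was at 31441 ± 3861 CPM in positive and 37484 ± 4703 CPM in negative cells (-0.25 ± 0.10, adjusted p = 0.165; 0.0447 as adjusted p with the block), and shares near-identical sequence with Ins2, so reads could be split between them. Among those called with the block and, over all libraries, not without it were Mafa, Ins1, Pdx1, Nkx6-1, Slc30a8, Kcnj11 and Abcc8, and without negative 3 the fit without the block called 4 genes of the list, all lower, Ins1 among them (-0.33, edgeR adjusted p = 0.0295). In the same libraries the endothelial and macrophage markers and the delta cell genes Sst and Hhex were higher and 5 of 14 acinar genes lower, by the values given above. A lower share of beta cells and a lower level per beta cell cannot be told apart.

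**Figure D5:**
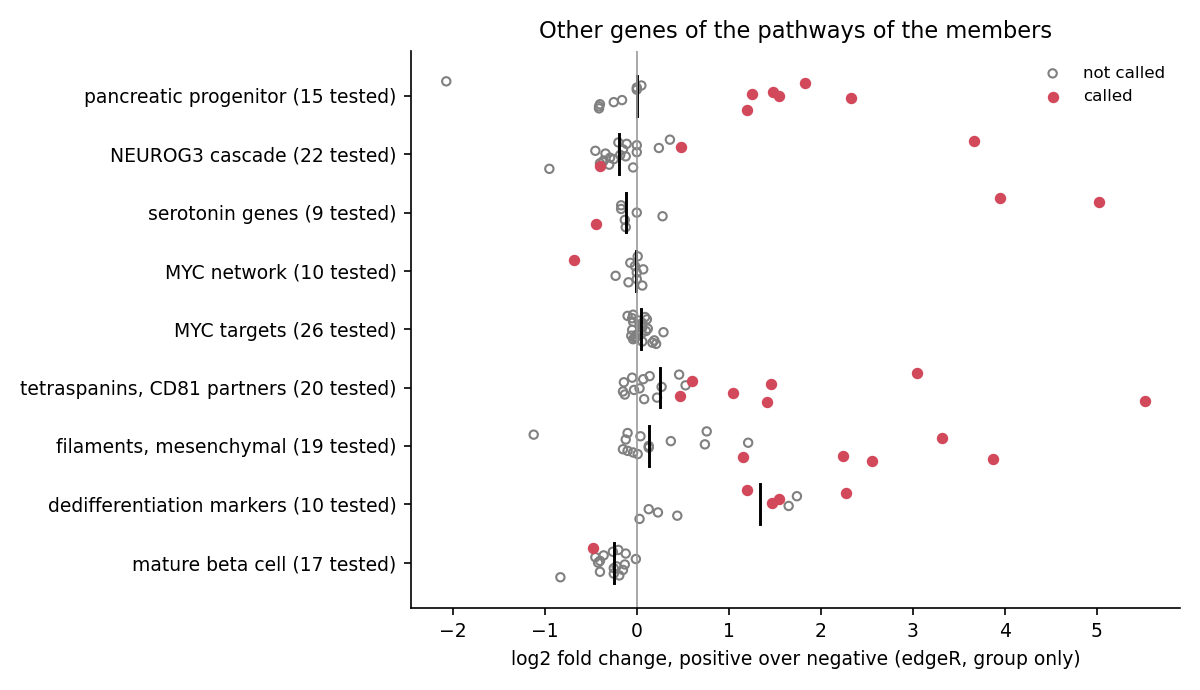
Log2 fold change, positive over negative, of the tested genes of 9 lists around the members (edgeR, group only), with genes called at an adjusted p below 0.05 in red, others as open circles, and the median of each list as a bar. The medians lay between -0.25 for mature beta cell genes and 0.25 for tetraspanins and CD81 partners, apart from 1.34 for dedifferentiation markers, and no gene of the MYC target list was called.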

How the data were processed

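RNA of 7 positive and 7 negative libraries was measured by sequencing. A kit for few cells was used to extract RNA, polyadenylated RNA was selected and the library kit marked strand, per the labels' protocols. Per the submitters' processing notes, reads were mapped with Subread to GRCm38 and counted with featureCounts. Versions, annotation, strand setting and the treatment of reads matching several genes are not given in the sources used here. Raw counts of reads for each gene were deposited by the authors. Total counts per library are given above, and the common biological coefficient of variation was 0.198.

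The comparison of groups used edgeR 4.0.16 (R 4.3.3). The filter filterByExpr left 16350 of 52459 genes, TMM factors were 0.969 to 1.03, and the quasi-likelihood test had the group as its only term. CPM were computed on TMM-scaled library sizes. A gene was called where its adjusted p (Benjamini-Hochberg, all genes tested) was below 0.05. Members under the filter were tested by an exact permutation test on log2(CPM + 1), which can give no p below 0.000583. With the block an exact sign-flip test over the 7 pairs was used for them, which can give no p below 0.0156. Log2 CPM for likeness used a prior count of 2. The procedure was checked on simulated data. Libraries of a group differed by more than sampling noise (chi-square per degree of freedom at least 5.36), so none was treated as a copy of another, and each counted as a sample as labelled.

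Alternatives were DESeq2 1.42.0, its size factors in edgeR, no filter, a pseudocount of 0.1, each library left out, libraries 6 and 7 left out, and the replicate number as a block. The numbers come from the labels. Libraries of equal number deviated together from their group means (r 0.20 to 0.54, median of different numbers -0.13), and 6 of 7 positive libraries correlated best with their own number, so the numbers were taken to pair the libraries. The members and lists were chosen with earlier results of these data known. Named genes were the members, up to 3 called genes of smallest adjusted p in each direction per list, the 2 most abundant where fewer than 2 were called, and the 3 genes most like each member. Sox9, Pax4, Tph1, Aldh1a3, Pou5f1, Nanog, Krt8, Krt18, Fn1, Sst, Hhex, Pnlip, Rgs5, Abcc9, Notch3, Col1a1, Col1a2, Col3a1, Sox11, other genes listed as called, and those called only with the block were named after their values were seen. The same holds for Cldn4, Spp1, Krt7, Epcam, Krt19, C1qa, C1qb, Cd68, Adgre1 and Gsn. Some genes of the lists are not reported here by name.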

Additional observations from a re-analysis of the deposited data

Results flagged for a closer look

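In 5 of 26 groups of 7 libraries examined, 1 library lay far from the other 6, by a gap that exceeded the critical share of the group's range in Dixon's test. For independent values with a normal spread such a gap arises in about 1 group in 20. The groups share libraries and a normal spread of these values was not shown, so the count is a description only. Neurog3 was at 2.18 CPM in negative 1, while the next highest negative library had 0.556 CPM. Sox4 was at 34 CPM in the same library, with 20.7 CPM in the next. Vim was at 60.2 CPM in negative 3, with 12.1 CPM in the next, and the sum of stellate cell, pericyte and fibroblast markers was 1969 CPM in that library, with 212 CPM in the next. The sum of acinar markers was 965 CPM in positive 1, with 296 CPM in the next positive library.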

How the results depend on the processing

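With the replicate block the counts of calls were 2 members (0 without it), 3200 genes (1313), 13 genes at or below NEUROG3 (3), 2 MYC network genes (1), 3 MYC targets (0), 11 tetraspanins and partners (7) and 9 mature beta cell genes (1). DESeq2 called 1 member and 2079 genes. Without the 4 libraries numbered 6 and 7 the counts were 581 genes, 3 progenitor genes (6 in all libraries), 0 MYC network genes, 3 tetraspanins and partners, 2 filament and mesenchymal genes (5) and 2 dedifferentiation genes (4). Without a filter on low counts 0 MYC network genes were called. Chosen after seeing the data, leaving out negative 1 and negative 3 together gave 2 members. Leaving out 1 library at a time gave 0 to 1 members, 0 to 1 MYC network genes, 3 to 5 filament and mesenchymal genes and 1 to 4 mature beta cell genes, and leaving out 1 pair with the block, also chosen later, gave 0 to 2 members. Of the members and the genes named by the rule, the sign turned for Fev, Myc, Ccnd2, Mxd4 and Mycl. Fev was at -0.34 to 0.15 with 1 library left out, -0.49 to 0.11 with 1 pair left out under the block and 0.17 without negative 1 and 3, and had no value without the libraries numbered 6 and 7. Myc was at -0.13 to 0.09, -0.07 to 0.12 and -0.04 in the same settings, and -0.01 without the filter. Ccnd2 was at -0.04 to 0.01 with 1 library left out and 0.03 without the libraries numbered 6 and 7, Mxd4 at -0.04 to 0.01 and 0.00, also 0.00 with the block, and Mycl at -0.05 to 0.03 and, with a pseudocount of 0.1, 0.02. The cause was not tested. Vim, Sox4 and Cd81 kept a positive direction in all alternatives. Neurog3, Mycl and Mycn had only 39 to 86 counts a group, which limits their precision.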

Other observations

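Sox11, the close relative of Sox4 in the SOXC group, stayed below the filter on low counts and was noticed after its values were seen. It had 64 counts over the positive and 9 over the negative libraries, with 0.490 ± 0.242 CPM in positive and 0.0786 ± 0.0884 CPM in negative cells (SD, n = 7 each), and was higher in 6 of 7 pairs. DESeq2 (log2 fold change 2.67, adjusted p = 0.0033) and edgeR without a filter on low counts (2.55, adjusted p = 0.0105) called it higher. Negative 1 had the highest Neurog3, at 2.18 CPM, the highest Sox4 of the negative libraries, at 34 CPM, and the lowest Myc of all 14 libraries, at 10.8 CPM. Its alpha cell markers summed to 28434 CPM, the highest of all libraries, and its acinar markers to 1403 CPM, the second highest.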
